A study of Mus musculus with 9 samples.

Results

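The genes described here encode the machinery that carries proteins into mitochondria. They were measured in erythroblasts, marrow cells on the way to becoming red cells. Members were the genes whose array probes carry a RefSeq transcript of a symbol beginning with Tomm or Timm, or of Samm50, Mtx1, Mtx2, Pam16, Grpel1, Grpel2, Pmpca, Pmpcb, Chchd4 or Gfer. This gave 36 genes with 50 probes, of 20018 named genes on the array. Expression was above background well enough to test in 34 of the 36, among 14506 genes tested in all.

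Nearly all mitochondrial proteins are made in the cytosol and imported. Precursors pass the outer membrane through the TOM complex, whose receptors Tomm20, Tomm22 and Tomm70a hand them to the Tomm40 channel, and beta-barrel proteins are then inserted by the SAM complex. Proteins with a presequence cross the inner membrane through the TIM23 channel and are pulled in by a motor, after which the peptidase made of Pmpca and Pmpcb cuts the presequence off. Carrier proteins are escorted by small TIM chaperones to the TIM22 channel, and small cysteine-rich proteins are trapped in the intermembrane space by the disulfide relay of Chchd4 and Gfer. Erythroblasts rely on imported enzymes for heme and iron-sulfur cluster synthesis, and lose their mitochondria when they mature.

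The erythroblasts, called subset II by the submitters, were sorted from the marrow of wild-type mice of the strain C57BL/6J, all labelled female. The 3 groups of 3 arrays were normal diet, 3 weeks of low iron diet (LID_W_3w in the labels) and 7 weeks of low iron diet (LID_W_7w), both begun when the mice were weaned. Replicates are given as biological, but the age of the normal diet mice, the number of animals in a sample and the gates of the sort were not given in the sources used here. The comparisons ask which genes differed after each time on the diet, in a series about mitophagy and gene expression in iron deficiency anemia. In bulk RNA, fewer cells of a type and less RNA per cell cannot be told apart.

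A level below is the log2 signal of a probe minus the 75th percentile of its array, and is compared only between arrays, not between genes. A fold change is the difference of group means of that level, ± the standard error of the limma fit over all 9 arrays, with 3 arrays in each group. The adjusted p is Benjamini-Hochberg over all genes tested, and a gene "rose" or "fell" where it was under 0.05. With 3 arrays in a group, precision rests on their number.

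The arrays differed in ways that bear on these values. The 3 arrays of a group shared 1 slide and 1 scan, and no slide held more than 1 group, so slide and diet cannot be told apart. The share of spots well above background was 65.5% to 66.3% on normal diet, 56.8% to 70.8% after 3 weeks and 45.2% to 53.6% after 7 weeks, and the signal at the 75th percentile ran from 1511.4 to 1643.3, from 1687.1 to 1836.0 and from 799.4 to 1093.8. The array's spike-in control spots averaged 4.43 to 5.35 log2 units above that percentile at 7 weeks, against 0.48 to 1.73 in the other groups, and the correlation between arrays of a group was 0.909 to 0.958 at 7 weeks, against 0.977 to 0.987. Before scaling, the median gene was 1.07 log2 units lower at 7 weeks than on normal diet; after scaling the median was -0.26, and at 3 weeks -0.16. Normal diet replicates 1 and 2 had the Y-linked gene Eif2s3y at 5.09 and 4.81, against -3.78 on replicate 3, and the X-inactivation RNA Xist at -5.62 and -5.25, against -0.74, which goes against their label. On the low iron arrays Eif2s3y was at -6.61 to -4.0 and Xist at -1.17 to 1.46. Where replicates 1 and 2 serve as controls, the sex these genes point to cannot be told apart from diet. The erythroblast markers Tfrc, Klf1, Gata1, Epor, Alas2, Hbb-bt, Hba-a1 and Slc4a1 were well above background on all 9 arrays. None of these 8 passed at 3 weeks, and at 7 weeks Alas2, Hbb-bt and Slc4a1 rose by 0.84 to 0.94.

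The sequence around the start of transcription is shown for 5 of the members called against normal diet. Of these, 2 fell at 3 weeks (Pam16 and Timm8b) and 3 more changed at 7 weeks (Timm10, Tomm20 and Tomm70a). Each sequence runs from 120 bases before the start to 30 bases after it, on the strand of the gene, from RefSeq on GRCm38.p6. Capitals mark the usual form of the site of NRF1 (GCGC and TGCGC with any 1 base between them) and CCGGAAG, the core of the site of GABP, both of them regulators of nuclear genes for mitochondrial proteins. Both motifs were searched on both strands, and overlapping matches were kept.
Pam16 (chr16:4624917-4625066, minus strand): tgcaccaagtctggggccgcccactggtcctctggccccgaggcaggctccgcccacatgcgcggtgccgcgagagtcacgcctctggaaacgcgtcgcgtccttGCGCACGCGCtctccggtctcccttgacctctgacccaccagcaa
Timm8b (chr9:50603781-50603930, plus strand): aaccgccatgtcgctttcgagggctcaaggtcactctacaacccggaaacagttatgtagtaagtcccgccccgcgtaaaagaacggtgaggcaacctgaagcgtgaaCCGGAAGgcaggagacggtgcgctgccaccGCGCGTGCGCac
Timm10 (chr2:84826901-84827050, plus strand): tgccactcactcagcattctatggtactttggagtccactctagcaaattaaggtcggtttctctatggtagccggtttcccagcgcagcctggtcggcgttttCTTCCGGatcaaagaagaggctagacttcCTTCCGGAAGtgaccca
Tomm20 (chr8:126945892-126946041, minus strand): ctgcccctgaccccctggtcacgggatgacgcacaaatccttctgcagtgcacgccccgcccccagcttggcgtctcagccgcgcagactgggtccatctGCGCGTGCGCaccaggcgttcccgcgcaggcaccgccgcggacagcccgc
Tomm70a (chr16:57121594-57121743, plus strand): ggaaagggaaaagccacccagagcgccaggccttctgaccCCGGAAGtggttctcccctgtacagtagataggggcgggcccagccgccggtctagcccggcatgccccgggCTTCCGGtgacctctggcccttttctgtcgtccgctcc

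A 300-base promoter (250 before the start to 50 after) was found for 32 of the 36 members. The CCGGAAG core lay in the promoters of 15 of the 32 genes, or 46.9%, against 11.6% of 21263 promoters of protein-coding genes and 8.86% of all 32851. The NRF1 form lay in 4 of the 32, those of Chchd4, Pam16, Timm8b and Tomm20, or 12.5%, against 6.38% of protein-coding promoters and 4.6% of all. Of the members that fell at 3 weeks, Pam16 and Timm8b both held the NRF1 form, and Timm8b also held CCGGAAG; no promoter was matched for Tomm7. These matches describe letters in a window and are no measure of binding.

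After 3 weeks of low iron diet 3 of the 34 import genes fell and none rose: Pam16, a subunit of the import motor, Tomm7, a small subunit of the TOM complex, and Timm8b, a small TIM chaperone. That is 8.82% of the members, near the 7.59% of all genes that fell, and for rises 0%, against 3.57% of all genes. In either direction, 9 of the 34 had an unadjusted p under 0.05 by limma. The share of all genes at that unadjusted cut is not given here, so this count has no background beside it. The median over the members was -0.16, the same as that of all genes. In both directions together 11.2% of all genes passed. By kind of subunit, the lowest values lay among the small TOM subunits, some small TIM chaperones, Pam16 and Tomm40l (-1.41). They did not lie among the receptors, the SAM complex or the peptidase. Of these lowest genes only Pam16, Tomm7 and Timm8b passed.

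**Figure D1:**
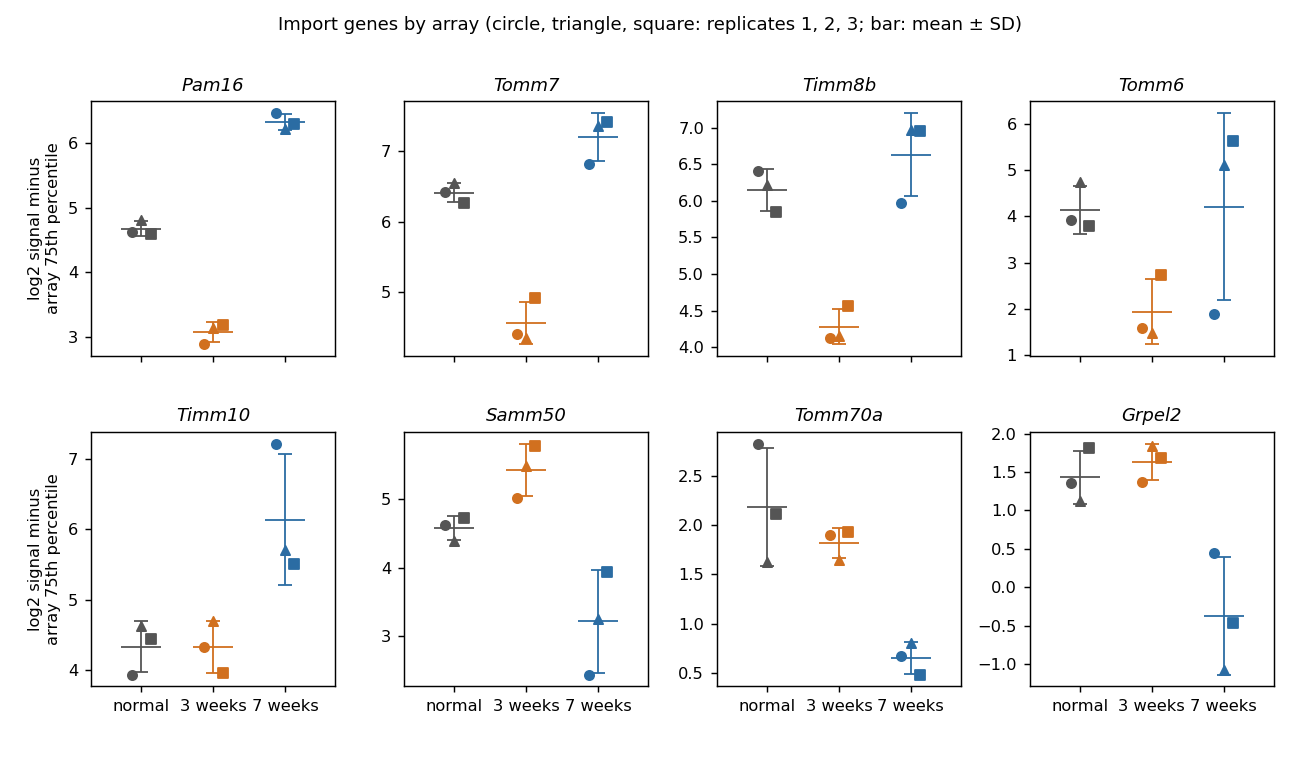
Levels of 8 import genes on each array, as log2 signal minus the array's 75th percentile, by diet group; symbols are replicates, and the bar and whiskers are the mean and SD of 3 arrays. Pam16, Tomm7, Timm8b and Tomm6 were lowest at 3 weeks except for 7 week replicate 1 of Tomm6 (1.90), whereas Samm50, Tomm70a and Grpel2 were lowest at 7 weeks.

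Pam16 encodes the J-like subunit that holds the J-protein of the motor, Dnajc19, at the TIM23 channel and restrains it. Its level was 4.63, 4.81 and 4.59 on normal diet, 2.89, 3.14 and 3.19 at 3 weeks and 6.47, 6.22 and 6.30 at 7 weeks. The groups did not overlap, and the order was 3 weeks, normal diet, 7 weeks. The gene fell by 1.60 ± 0.24 at 3 weeks (limma adjusted p = 0.00985), and its other probe gave -1.64 ± 0.26 (limma adjusted p = 0.0109 over all probes, of which 10.5% passed).

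Tomm7 encodes a small subunit that modulates the assembly of the TOM complex and helps to hold the kinase Pink1 at the outer membrane. Its level was 6.42, 6.54 and 6.26 on normal diet, 4.41, 4.35 and 4.91 at 3 weeks and 6.81, 7.36 and 7.41 at 7 weeks. Every 3 week array lay below all arrays of the other groups. Tomm7 fell by 1.85 ± 0.28 at 3 weeks (limma adjusted p = 0.0100). A second, dimmer probe of Tomm7, with levels between -3.52 and -1.89, was at 0.26 ± 0.38 and did not pass, and the mean of both probes ended the call (-0.79).

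The other small TOM subunits had low values at 3 weeks too, with a wider spread. Tomm6 was at 3.91, 4.74 and 3.78 on normal diet, 1.60, 1.48 and 2.74 at 3 weeks and 1.90, 5.10 and 5.63 at 7 weeks. Its fold change at 3 weeks was -2.20 ± 0.87 (limma adjusted p = 0.128), the largest in size of any member, and the SD of 2.02 at 7 weeks enters the error of the fit. Tomm5 was at -1.52 ± 0.51 (limma adjusted p = 0.0875), with its other probe at -1.29. For all 3 small subunits the 3 week arrays lay below the normal diet arrays by the chosen probes, as they did for 31.0% of all genes. By the dimmer Tomm7 probe these groups overlapped.

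Timm8b works with Timm13 as a chaperone of hydrophobic precursors in the intermembrane space. Its level was 6.40, 6.21 and 5.84 on normal diet, 4.13, 4.15 and 4.56 at 3 weeks and 5.97, 6.97 and 6.96 at 7 weeks. The 3 week arrays lay below all others, while those of normal diet and 7 weeks overlapped. Timm8b fell by 1.87 ± 0.34 at 3 weeks (limma adjusted p = 0.0156). Among the other small TIM genes, Timm10b, a subunit bound to the TIM22 complex, was at -1.44 ± 0.55 (limma adjusted p = 0.121) by its chosen probe, and fell by the other (-1.61 ± 0.39, limma adjusted p = 0.0346 over all probes). Timm13 was at -0.62, Timm10 at -0.01, Timm8a1 at 0.13 and Timm9 at 0.43, and none of them passed.

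The channels and receptors did not pass at 3 weeks. Timm23, the pore of the presequence channel, was at 6.22, 6.11 and 5.98 on normal diet and 5.30, 5.30 and 5.55 at 3 weeks, with no overlap, a fold change of -0.72 ± 0.37 and an adjusted p of 0.224 by limma. Its partner Timm17a was at -0.89 ± 0.27 (limma adjusted p = 0.0637), and Grpel1, the nucleotide exchange factor of the motor, at -0.98 ± 0.28 (limma adjusted p = 0.0517). Tomm40, the pore of the outer membrane, was at -0.18 ± 0.61, Timm22, the carrier channel, at -0.53 ± 0.33 and Samm50, the core of the SAM complex, at 0.85 ± 0.39, none of which passed. The receptor genes Tomm20, Tomm22 and Tomm70a lay between -0.37 and 0.09. Groups did not overlap for 13 members lower (38.2%, against 31.0% of all genes) and 4 higher (11.8%, against 18.3%).

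The 3 week count moved with the arrays used. Leaving out normal diet replicate 2 gave 1 call, 7 week replicate 2 gave 5 and 7 week replicate 1 gave 11, and a fit to the normal diet and 3 week arrays alone gave 12. The share of all genes called moved too, from 11.2% on all arrays to 1.21%, 14%, 23.9% and 30.1% in these fits, in the same order. The 7 week arrays enter this comparison only through the pooled spread. Without 7 week replicate 1 Tomm5, Tomm6, Timm10b, Timm17a, Timm23, Grpel1 and Tomm40l fell too and Timmdc1 rose. With normal diet replicate 3 as the sole control, Pam16, Tomm7 and Timm8b were at -1.51, -1.71 and -1.56. That fit has 1 control array, so its calls are not counted. Markers of other marrow cells moved as well: 3 of 6 monocyte and macrophage markers (Lyz2, Cd14 and C1qa), 2 of 5 B lineage markers and 2 of 8 neutrophil markers rose at 3 weeks. The summed level of the monocyte and macrophage list was 4.74 to 5.32 on normal diet, 5.62 to 6.17 at 3 weeks and 3.47 to 3.84 at 7 weeks. For B lineage it was 2.04 to 2.75, 3.14 to 4.40 and 1.71 to 3.18, and for neutrophils 7.70 to 9.18, 8.07 to 8.77 and 8.43 to 9.11. The part of such cells in these values was not tested.

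**Figure D2:**
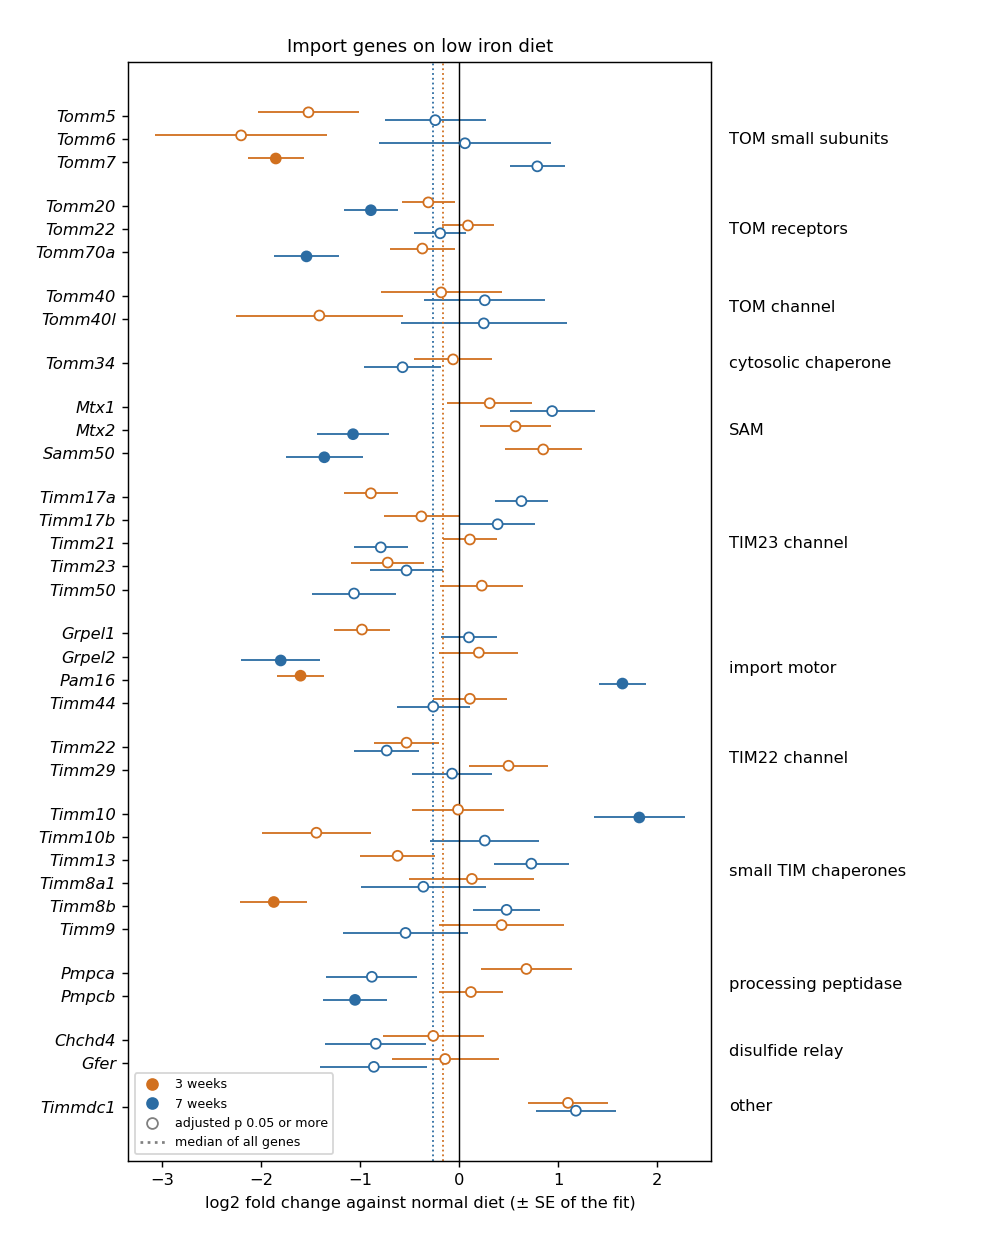
Log2 fold change of the 34 tested import genes against normal diet at 3 weeks (orange) and 7 weeks (blue), grouped by complex; whiskers are the SE of the fit, filled points passed an adjusted p of 0.05, and dotted lines are the medians of all genes. The small TOM subunits lie between -2.20 and -1.52 at 3 weeks, and the SAM genes Samm50 and Mtx2 lie above 0 at 3 weeks and below 0 at 7 weeks.

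After 7 weeks of low iron diet 8 of the 34 import genes differed from normal diet, among 29.5% of all genes that did. Pam16 and Timm10 rose, and the receptor genes Tomm20 and Tomm70a, the SAM genes Samm50 and Mtx2, the peptidase gene Pmpcb and the motor gene Grpel2 fell. The 2 rises are 5.88% of members, against 10.8% of all genes, and the 6 falls 17.6%, against 18.6%. The median of the members was -0.25 and that of all genes -0.26; before scaling they were -1.06 and -1.07. With no scaling between arrays 1 member was called higher and 15 lower, among 48.9% of all genes called, and with quantile normalization 3 and 2, among 27.3%. Groups did not overlap for 6 members higher (17.6%, against 18.2% of all genes) and 9 lower (26.5%, against 29.3%).

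Pam16, with the levels given above, rose by 1.65 ± 0.24 (limma adjusted p = 0.00298), and its other probe gave 1.72 ± 0.26. Timm10, which with Timm9 forms the main chaperone of carrier precursors, was at 3.93, 4.62 and 4.44 on normal diet, 4.32, 4.69 and 3.95 at 3 weeks and 7.22, 5.71 and 5.51 at 7 weeks. The 7 week arrays lay above all others, with replicate 1 highest. Timm10 rose by 1.82 ± 0.46 (limma adjusted p = 0.0199) by its chosen probe and by 2.15 ± 0.47 by the other, while Timm9 was at -0.54 ± 0.63 and did not pass. Before scaling, Timm10 was 1.00 and Pam16 0.84 log2 units higher, against the fall of 1.07 in the median gene.

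Among the receptors, Tomm70a, which takes carrier precursors from cytosolic chaperones, was at 2.83, 1.63 and 2.11 on normal diet, 1.90, 1.65 and 1.93 at 3 weeks and 0.67, 0.80 and 0.48 at 7 weeks. The 7 week arrays lay together below both other groups. Tomm70a fell by 1.54 ± 0.33 at 7 weeks (limma adjusted p = 0.0106). Tomm20, the main receptor for presequences, was at 5.09, 5.0 and 4.63 on normal diet, 4.60, 4.52 and 4.67 at 3 weeks and 3.67, 4.33 and 4.05 at 7 weeks. It fell by 0.89 ± 0.27 at 7 weeks (limma adjusted p = 0.0371), with its other probe at -0.58 (limma adjusted p = 0.137 over all probes). Of 21 alternative ways to treat the data, 13 lost the Tomm20 call, against 1 for Tomm70a. Tomm22, the central receptor, was at -0.19 ± 0.26 and did not pass.

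The SAM genes were not alike. Samm50 was at 4.62, 4.39 and 4.72 on normal diet, 5.02, 5.49 and 5.77 at 3 weeks and 2.44, 3.26 and 3.94 at 7 weeks. The 3 week arrays were highest and the 7 week arrays lowest, without overlap. Samm50 fell by 1.36 ± 0.39 at 7 weeks (limma adjusted p = 0.0314). Mtx2, which encodes a metaxin of the cytosolic face of the complex, was at 5.12, 4.63 and 4.89, then 5.18, 5.45 and 5.73, then 3.33, 3.54 and 4.54, and fell by 1.07 ± 0.36 at 7 weeks, just within the threshold (limma adjusted p = 0.0496). The other metaxin gene, Mtx1, was at 0.94 ± 0.43 and did not pass (limma adjusted p = 0.125).

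Grpel2, a nucleotide exchange factor of the motor like Grpel1, was at 1.36, 1.12 and 1.81 on normal diet, 1.37, 1.84 and 1.68 at 3 weeks and 0.45, -1.08 and -0.47 at 7 weeks. It fell by 1.80 ± 0.40 at 7 weeks (limma adjusted p = 0.0120), while Grpel1 was at 0.10 ± 0.28. A second probe of Grpel2 was well above background on all normal diet and 3 week arrays and on none at 7 weeks, which puts its level at least 5.76-fold lower than on normal diet and at least 10.6-fold lower than at 3 weeks. These folds are bounds: the mean of the bright group over the lowest signal well above background on each dim array, or the dim probe's own where that was higher. The fit gave -4.66 ± 0.57 and -5.54 ± 0.57 for the same probe, which are no bounds.

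Of the peptidase genes, Pmpcb, the catalytic subunit, was at 4.37, 3.67 and 3.66 on normal diet, 3.97, 3.88 and 4.21 at 3 weeks and 2.35, 3.12 and 3.09 at 7 weeks, and fell by 1.05 ± 0.32 at 7 weeks (limma adjusted p = 0.0385). Pmpca, the subunit that binds presequences, was at -0.88 ± 0.46 and did not pass. The TIM23 subunits Timm50 and Timm21 were at -1.06 ± 0.42 and -0.79 ± 0.27 (limma adjusted p = 0.0848 and 0.0559), and a second Timm50 probe fell (-2.29 ± 0.49, limma adjusted p = 0.0108 over all probes, of which 29.8% passed). Chchd4 and Gfer, the disulfide relay, were at -0.84 ± 0.51 and -0.86 ± 0.54, and Timm23, Timm22 and Tomm40 at -0.53, -0.73 and 0.26, with no call. Timmdc1, which despite its symbol serves the assembly of respiratory complex I, was at 1.18 ± 0.40 (limma adjusted p = 0.0512), with the 7 week arrays above those of normal diet.

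A single array shaped the 7 week values. Relative to the normal diet mean, the median member was at -1.23 on 7 week replicate 1, against 0.10 and 0.17 on replicates 2 and 3, whereas the median of all genes was at -0.24, -0.31 and -0.19. Replicate 1 was the lowest of the 3 arrays for 27 of the 34 members, or 79.4%, against 37.5% of all genes. Without it 10 members were higher than on normal diet and 3 lower: Pam16, Timm10, Timm10b, Timm13, Timm17a, Timm17b, Timm8b, Timmdc1, Tomm40l and Tomm7 rose and Grpel2, Samm50 and Tomm70a fell. In the same fit 35.8% of all genes passed. Of the 8 calls on all arrays, 5 were among these 13. The SD at 7 weeks was largest for Tomm6 and Tomm40l, at 2.02 each.

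Other arrays moved the 7 week count downwards. Leaving out normal diet replicate 1, 2 or 3 gave 3, 4 and 2 calls. The share of all genes called fell too, from 29.5% to 12%, 21.9% and 14.7%. Leaving out any single 3 week replicate gave 5, among 24% to 25.5% of all genes. With normal diet replicate 3 as the sole control, Pam16 was at 1.74, Timm10 at 1.71, Tomm70a at -1.45 and Grpel2 at -2.18. Calls are not counted for that fit, which has 1 control array. Markers of other cells moved both ways at 7 weeks: 3 of 6 monocyte and macrophage markers, Ms4a1, Gp9 and Prg2 fell, and Elane, a neutrophil gene, and Cd79a, a B lineage gene, rose by 2.60 and 1.29. The megakaryocyte list had a summed level of 4.11 to 5.64 on normal diet and 2.37 to 5.24 at 7 weeks (4.38 to 6.01 at 3 weeks). The mast cell, basophil and eosinophil list was at 3.67 to 4.53, at -0.88 to 4.54 at 3 weeks and at -1.0 to -0.66 at 7 weeks, and the T and NK cell list between 3.41 and 3.95 throughout. Their part in the results was not tested.

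The comparison of 7 with 3 weeks sets a longer against a shorter time on the diet, and it does not use the normal diet arrays in its fold changes. Both diets began at weaning, so the 7 week mice were also older. Age, slide and time on the diet cannot be told apart here. Here 16 of 34 import genes differed, against 37.2% of all genes, with 8 higher (23.5%, against 17.4% of all genes) and 8 lower (23.5%, against 19.8%). The members higher at 7 weeks were Pam16, Tomm7, Timm8b, Timm10, Timm10b, Timm17a, Timm13 and Grpel1. Those lower were Samm50, Grpel2, Mtx2, Pmpca, Timm50, Tomm70a, Pmpcb and Timm21. Of the small TIM chaperones 4 of 6 tested were higher, while 2 of 3 SAM genes and 2 of 2 peptidase genes were lower. Groups did not overlap for 7 members higher (20.6%, against 23.1% of all genes) and 9 lower (26.5%, against 25.4%). With no scaling between arrays 3 members were called higher and 17 lower, among 52.6% of all genes called. From 3 to 7 weeks 5 of 6 monocyte and macrophage markers fell, as did 3 of 8 neutrophil markers, while 2 neutrophil markers and the erythroblast markers Alas2, Hbb-bt, Hba-a1 and Slc4a1 rose. Of the other lists, Cd79a and Cd3e rose and Ms4a1, Ppbp and Prg2 fell, and the part of such cells in the result was not tested.

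**Figure D3:**
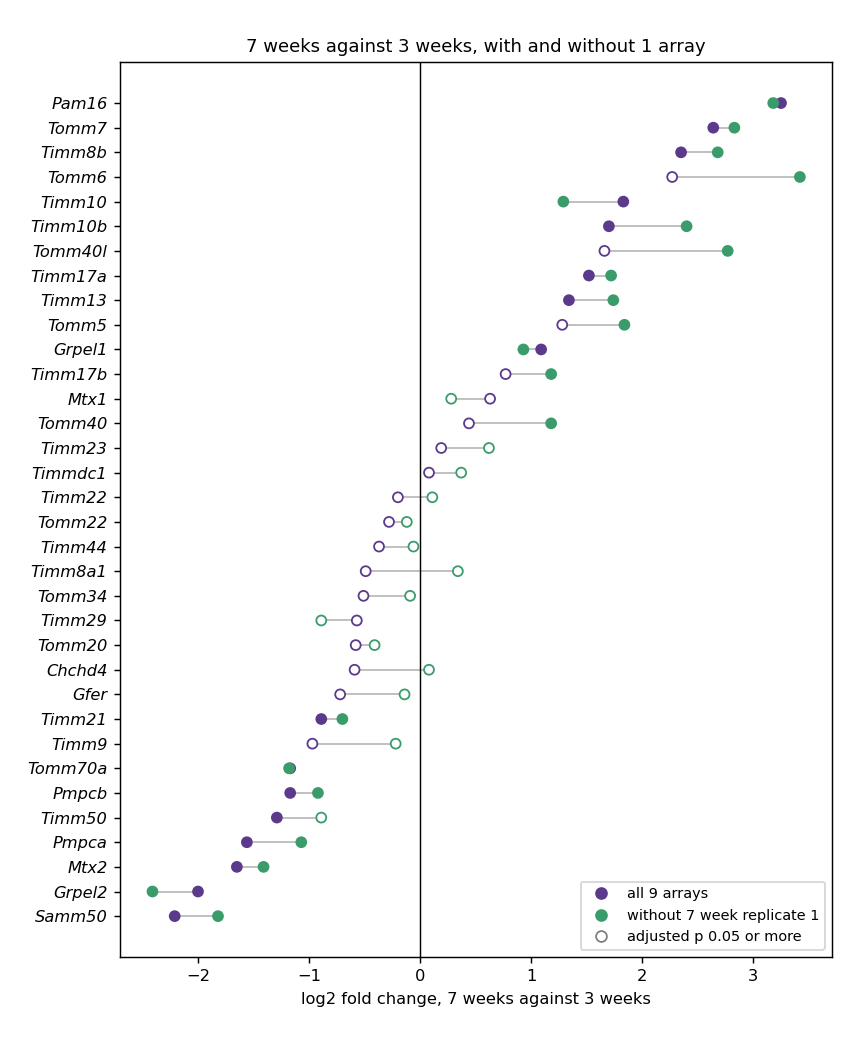
Log2 fold change of each tested import gene at 7 weeks against 3 weeks, over all 9 arrays (purple) and without 7 week replicate 1 (green); filled points passed an adjusted p of 0.05. Tomm6 moves from 2.27 to 3.42 and Tomm40l from 1.66 to 2.77 without that array, while Pam16 moves from 3.25 to 3.18.

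Pam16 had the largest difference between the times, 3.25 ± 0.24 (limma adjusted p = 4.03e-04), followed among called genes by Tomm7 at 2.64 ± 0.28 (limma adjusted p = 4.94e-04), by its brighter probe, and Timm8b at 2.35 ± 0.34 (limma adjusted p = 0.00130). The dimmer Tomm7 probe was at -0.56 ± 0.38 and did not pass, and the mean of both probes was at 1.04 ± 0.24 (limma adjusted p = 0.00895). Timm10 was higher by 1.83 ± 0.46, Timm10b by 1.70 ± 0.55, Timm17a by 1.52 ± 0.27, Timm13 by 1.34 ± 0.38 and Grpel1 by 1.09 ± 0.28. Before scaling, these 8 genes were higher by 0.13 (Grpel1) to 2.29 (Pam16), against a median gene that was 1.09 lower. Timm17a, a structural subunit of the TIM23 channel, was at 6.10, 6.05 and 5.85 on normal diet, 4.95, 5.30 and 5.08 at 3 weeks and 6.23, 6.89 and 6.76 at 7 weeks. All 3 groups were apart in Timm17a, with 3 weeks lowest. Grpel1 was at 6.99, 6.97 and 6.55, then 5.60, 5.95 and 6.01, then 7.26, 6.68 and 6.89, so that only the 3 week arrays stood apart.

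Timm13 and Timm10b show the weight of 7 week replicate 1. Timm13 was at 5.75, 5.86 and 5.45 on normal diet, 4.67, 5.27 and 5.27 at 3 weeks and 5.62, 6.93 and 6.69 at 7 weeks. Timm10b was at 3.87, 3.77 and 3.20, then 1.86, 2.11 and 2.54, then 2.46, 4.36 and 4.79. In both genes replicate 1 was the lowest of the 7 week arrays, and for Timm10b it lay among the 3 week arrays. Without it, the differences from 3 weeks were 1.74 and 2.40.

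On the lower side, Samm50 fell by 2.21 ± 0.39 from 3 to 7 weeks (limma adjusted p = 0.00322), Grpel2 by 2.00 ± 0.40 (limma adjusted p = 0.00515) and Mtx2 by 1.65 ± 0.36 (limma adjusted p = 0.00728). Pmpca was at 1.91, 1.11 and 1.96 on normal diet, 2.24, 2.05 and 2.74 at 3 weeks and -0.20, 1.06 and 1.49 at 7 weeks, and fell by 1.56 ± 0.46 (limma adjusted p = 0.0268). Its 7 week arrays lay below those of 3 weeks but overlapped those of normal diet. Timm50, the presequence receptor of the inner membrane, was at 3.32, 2.90 and 2.69, then 2.60, 3.43 and 3.57, then 1.11, 2.16 and 2.47, and fell by 1.29 ± 0.42 (limma adjusted p = 0.0388). Timm21, which links the TIM23 channel to the TOM complex, was at 2.68, 2.34 and 2.21, then 2.39, 2.57 and 2.59, then 1.24, 1.81 and 1.82, and fell by 0.89 ± 0.27 (limma adjusted p = 0.0296). Tomm70a and Pmpcb fell by 1.17 each (± 0.33 and ± 0.32).

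The count of 16 was 9 without 3 week replicate 1 and 9 without 3 week replicate 3, where 27.4% and 24.4% of all genes passed. It was 20 without 7 week replicate 1, where 44.8% of all genes passed. Of the 16 calls, 15 were among those 20, with Timm50 the exception at -0.89. Of the 12 members with a further probe tested, Tomm7, Tomm40 and Timm8a1 had probes of opposite sign for 7 against 3 weeks. Those of Tomm7 gave 2.64 and -0.56, those of Tomm40 0.44 and -1.57, and those of Timm8a1 -0.49 and 0.26. For Tomm40 the second probe passed (limma adjusted p = 0.0239 over all probes, of which 38.9% passed). The probes of Timm50 gave -1.29 and -2.84, and those of Grpel2 -2.00 and -5.54.

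Pairs of paralogs were on the array. Grpel1 and Grpel2 were at 0.10 and -1.80 at 7 weeks, Timm17a and Timm17b lay on the same side in each comparison (-0.89 and -0.38 at 3 weeks, 0.63 and 0.39 at 7 weeks), and the difference within a pair was not tested. The minor paralogs Tomm20l and Timm8a2 were not tested, being well above background on 1 and 3 of the 9 arrays. Tomm40l, a paralog of the outer membrane pore, was well above background on all but 1 array, a 7 week array, and was at -1.41 ± 0.84 at 3 weeks and 0.25 ± 0.84 at 7 weeks. The remaining members, Timm44, Timm29, Tomm34 and Tomm22, lay between -0.57 and 0.50 in every comparison and none passed. Signals were far from the ceiling of the scanner, at 0.043% (Tomm40l) to 16.2% (Grpel1) of the saturation value.

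Other genes of the import pathway were taken from 5 lists with 52 genes, all of them tested. At 3 weeks 7 of the 52 fell and none rose, at 7 weeks 12 fell and none rose, and between 3 and 7 weeks 16 rose and 7 fell. Of all genes, 7.59% fell and 3.57% rose at 3 weeks, 18.6% and 10.8% at 7 weeks, and 19.8% and 17.4% between the times. The 52 genes had medians of -0.68, -0.24 and 0.24, against -0.16, -0.26 and -0.14 for all genes. By limma, 20 and 22 of the 52 had an unadjusted p under 0.05 at 3 and 7 weeks. The shares of all genes given for these lists are at the adjusted p. None is given for the unadjusted cut, here or for the single lists below. Without 7 week replicate 1 the calls were 1 higher and 21 lower at 3 weeks, 6 and 10 at 7 weeks, and 24 and 7 between the times. In the same fit 23.9%, 35.8% and 44.8% of all genes passed. Without normal diet replicates 1 and 2, which leaves 1 control array, the medians were -0.53 at 3 weeks and -0.18 at 7 weeks. With no scaling the calls were 0 and 3, 0 and 24, and 4 and 19, among 6.66%, 48.9% and 52.6% of all genes. No scaling was an alternative chosen after the values were seen, as were the other 2 for these lists. Another list held small proteins with twin cysteine pairs, taken as substrates of Chchd4, though not each is known to be 1. Of these, 4 of 11 fell at 3 weeks, 0 of 11 passed at 7 weeks, and 10 of 11 were higher at 7 than at 3 weeks. The medians of the list were -1.15, 0.34 and 1.71. At 7 weeks 3 of the 11 had an unadjusted p under 0.05 by limma. Without 7 week replicate 1, 9 of 11 were lower at 3 weeks, 3 higher at 7 weeks and 11 higher between the times, and with no scaling 2 were lower, 1 was lower and 3 were higher. Its leading members were Cmc1, a factor for cytochrome oxidase assembly (-2.22 ± 0.38 at 3 weeks, limma adjusted p = 0.0142), and Ndufs5 of complex I (2.72 ± 0.37 from 3 to 7 weeks, limma adjusted p = 0.00106). Chchd4 itself did not pass in any comparison (-0.26, -0.84 and -0.59).

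**Figure D4:**
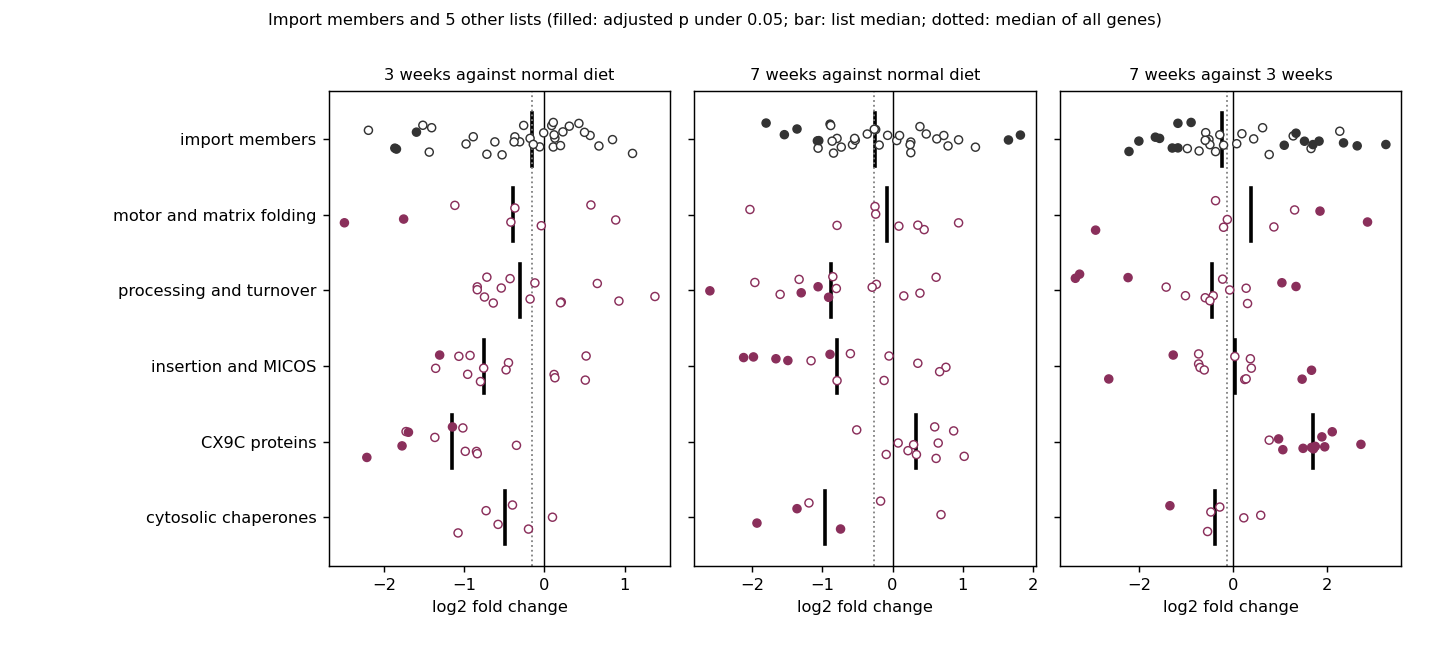
Log2 fold changes of the import members and of 5 other lists of the pathway in the 3 comparisons, one point per gene; filled points passed an adjusted p of 0.05, bars are list medians and dotted lines the medians of all genes. The twin-cysteine proteins (CX9C) have medians of -1.15, 0.34 and 1.71 from left to right.

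Among 8 genes of the motor and of matrix folding, 2 fell at 3 weeks, none passed at 7 weeks (1 at an unadjusted p under 0.05 by limma), and 2 rose and 1 fell from 3 to 7 weeks. Of all genes, 7.59% fell at 3 weeks, 29.5% passed at 7 weeks, and 17.4% rose and 19.8% fell from 3 to 7 weeks. Dnajc19, the J-protein partner of Pam16, was at 5.95, 5.93 and 5.63 on normal diet, 3.98, 3.74 and 4.52 at 3 weeks and 4.98, 6.33 and 6.47 at 7 weeks. It fell by 1.76 ± 0.42 at 3 weeks (limma adjusted p = 0.0310) and was at 0.09 ± 0.42 at 7 weeks, where Pam16 had risen. Romo1, a small inner membrane protein of the TIM23 channel, fell by 2.50 ± 0.43 at 3 weeks (limma adjusted p = 0.0142) and was 2.86 ± 0.43 higher at 7 than at 3 weeks. The matrix chaperones did not pass in the comparisons with normal diet: Hspa9, the ATPase of the motor, was at 0.58 and 0.45, and Hspd1, the folding chaperonin, at -0.42 and -0.79. Trap1, a matrix chaperone, fell by 2.92 ± 0.77 from 3 to 7 weeks (limma adjusted p = 0.0169).

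The counts of the other 3 lists stand beside these shares of all genes: 7.59% fell at 3 weeks, 18.6% fell at 7 weeks, and 17.4% rose and 19.8% fell from 3 to 7 weeks. Of 14 genes of processing and turnover none passed at 3 weeks (5 at an unadjusted p under 0.05 by limma), 4 fell at 7 weeks, and 2 rose and 3 fell from 3 to 7 weeks. Oma1, a stress-activated protease of the inner membrane, fell by 2.60 ± 0.65 at 7 weeks (limma adjusted p = 0.0181), and Mipep, which trims presequences after Pmpca and Pmpcb, fell by 3.35 ± 1.05 from 3 to 7 weeks (limma adjusted p = 0.0340); each was well above background on 2 of 3 arrays at 7 weeks. Of 13 genes of membrane insertion, assembly and MICOS 1 fell at 3 weeks, 5 fell at 7 weeks, and 2 rose and 2 fell between the times. Micos10 of the cristae junction fell by 1.31 ± 0.26 at 3 weeks (limma adjusted p = 0.0186), and Oxa1l, the insertase of the inner membrane, fell by 1.49 ± 0.45 at 7 weeks (limma adjusted p = 0.0354). Mtx3, a further metaxin gene, was not well above background at 7 weeks, which puts it at least 1.33-fold lower than on normal diet and at least 1.90-fold lower than at 3 weeks. Of 6 cytosolic chaperones none passed at 3 weeks (1 at an unadjusted p under 0.05 by limma) and 3 fell at 7 weeks, led by Dnaja2 (-1.93 ± 0.32, limma adjusted p = 0.00462), which also fell from 3 to 7 weeks, the only 1 of the 6 to do so.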

How the data were processed

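Expression was measured on 9 single-colour arrays, 1 per sample, in 3 groups of 3. Per the labels' protocols, total RNA was amplified and labelled with Cy3. The deposited scanner files hold spot intensity from Agilent Feature Extraction 10.7.3.1, background-subtracted and detrended within the array, per the file headers. The deposited series table holds log2 values centred on each probe's median (r of 0.997 to 0.999 with the scanner values; column medians 0, or -0.019 for 7 week replicate 2); its scaling between arrays is not given in the sources used here.

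Outlier spots were left out, and log2 intensity minus the array's 75th percentile over non-control spots was averaged per probe. RefSeq accessions named 26413 of 55681 probes through a table of GRCm38.p6. The brightest probe stood for a gene, kept where well above background on all 3 arrays of a group. The 3 comparisons were fitted in 1 model with limma 3.58.1 in R 4.3.3, two-sided, and checked on simulated data. The scanner files lack the mean spot signal named in the plan, so the normexp alternative used the median. Members and lists were chosen with earlier results of these data known. Values per array are given for members called in any comparison, the 3 of largest change in each, and others named for contrast; channel genes and, per pathway list and comparison, the called gene of largest change were named too. Alternatives covered background correction, scaling, the deposited table, filters, the probe rule, the arrays fitted and the threshold. Protein sequences were not used here. Replicate numbers did not pair samples (r of same-numbered deviations -0.17 to 0.29). Some results of the erythroblast marker list are not reported here.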

Additional observations from a re-analysis of the deposited data

Results flagged for a closer look

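The effects of 3 and of 7 weeks of low iron diet differed for 16 of 34 import genes, by the limma test of 7 against 3 weeks. In the same test 37.2% of all genes differed. Each value below is the log2 effect at 7 weeks minus that at 3 weeks. For 8 genes the effect was higher at 7 weeks: Pam16 (3.25), Tomm7 (2.64), Timm8b (2.35), Timm10 (1.83), Timm10b (1.70), Timm17a (1.52), Timm13 (1.34) and Grpel1 (1.09). For the other 8 it was lower: Samm50 (-2.21), Grpel2 (-2.00), Mtx2 (-1.65), Pmpca (-1.56), Timm50 (-1.29), Tomm70a (-1.17), Pmpcb (-1.17) and Timm21 (-0.89). Pam16 was the only member that passed in opposite directions at the 2 times.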

How the results depend on the processing

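The counts of import genes that passed, of 34, were 3 at 3 weeks, 8 at 7 weeks and 16 between 7 and 3 weeks. Of all genes, 11.2%, 29.5% and 37.2% passed. Leaving out each array in turn gave 1 to 11, 2 to 13 and 9 to 20. In those fits 1.21% to 23.9%, 12% to 35.8% and 24.4% to 44.8% of all genes passed. With only the 2 groups compared, the counts against normal diet were 12 and 4, among 30.1% and 19.3% of all genes. Without normal diet replicates 1 and 2 together both were 0 by limma, with 3 and 4 members at an unadjusted p under 0.05. That fit has 1 control array, so its counts cannot tell import genes from other genes, and no conclusion is drawn from them. Its medians over the members were -0.05 at 3 weeks and -0.03 at 7 weeks, against -0.16 and -0.25 for all genes. On all 9 arrays, at a threshold of 0.1, the 3 week count was 6, among 19.9% of all genes. At 7 weeks the count was 5 with quantile normalization (27.3% of all genes) and 16 with no scaling between arrays (1 higher and 15 lower, 48.9%). With the replicate number as a block the counts were 3, 5 and 15, among 9.55%, 27.9% and 36.3% of all genes. Of 588 values of single genes under these alternatives, none reversed, 476 kept their side of the threshold, 110 lost the call and 2 gained it, for genes chosen for passing or for size. Several alternatives could not reverse a value. The threshold of 0.1, the fit to 2 groups, the replicate block and leaving out an array of the group not compared keep the fold change. The threshold of 0.1 also cannot lose a call. The 7 week falls of Tomm20, Mtx2 and Pmpcb lost the call in 13, 13 and 11 of 21 alternatives. Those of Samm50, Grpel2 and Tomm70a lost it in 7, 2 and 1. The deposited table gave 3, 9 and 16 calls, among 10.6%, 29.4% and 37.3% of all genes. Arrays with fewer spots above background at 7 weeks limit what could be measured for dim genes such as Tomm40l.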
